A study of Drosophila melanogaster
Mus musculus with 21 samples.

Results

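The trophoblast regulators described here are Cdx2, Gata2, Gata3, Tfap2a, Tfap2c, Elf5 and Hand1, with the keratin genes Krt8 and Krt18 as the other members of a list of 9 symbols. They were picked by name, with earlier results of these data known. For each symbol the transcript entry with the most untreated reads was used. Of the 9 symbols, 7 were analysed, with 9 of the 20633 entries in each table, and Krt8 and Krt18 were not analysed here. Nuclear RNA had been sequenced from mouse embryonic stem cells grown with serum and leukemia inhibitory factor, in 7 groups of 3 biological replicates. The PRC1deg line has the genotype E14 Rosa26::Tir1; Ring1A-/-; AID-Ring1B, so that every group of it, untreated cells included, lacks RING1A and carries a degron on RING1B. Its groups were untreated cells and cells kept in 500 µM auxin for 2, 4, 8 or 24 h. The PRC2deg line, E14 Pcgf2-HaloTag; dTAG-Suz12, carries a degron on SUZ12, and its groups were untreated cells and cells exposed to 100 nM dTAG-13 over 2 h. Nothing in the labels says from how many clones either line came.

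The trophectoderm is the outer layer of the blastocyst, which gives rise to the placenta. Its fate is set by a small network of transcription factors: CDX2 and GATA3 act early, the AP-2 factors and ELF5 maintain trophoblast stem cells, and HAND1 and GATA2 act in trophoblast giant cells. Embryonic stem cells come from the inner cell mass and keep most of this programme silent. Polycomb repressive complex 1 (PRC1), whose catalytic subunits are RING1A and RING1B, places ubiquitin on histone H2A and holds many developmental regulators silent. Polycomb repressive complex 2 (PRC2), of which SUZ12 is a core subunit, methylates histone H3 at such genes.

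All values below come from the authors' deposited tables, which give a mean level in untreated cells, a log2 fold change against untreated cells of the same line and an adjusted p from DESeq2, with the Drosophila spike-in used for scaling. No value per library and no standard error was available, so the spread between replicates enters only through the adjusted p. A gene was called where that p was under 0.05 and the fold over 1.5. Summed over entries, the untreated means hold 30450536 normalised reads in PRC1deg and 29474239 in PRC2deg. Levels are in normalised reads per kilobase of the entry, and untreated reads are that level times the length of the entry. In a bulk sample, more cells with a transcript and more transcript per cell cannot be told apart.

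Stem cell identity was checked with markers. In untreated PRC1deg cells, 7 analysed pluripotency genes had levels from 128.7 to 3585 normalised reads per kilobase, while 6 primitive endoderm genes summed to 23.3 and 6 fibroblast genes to 122.5. Nearly all of the fibroblast sum was Thy1, at 116.1, and Dcn and Lum were listed at 0. In untreated PRC2deg cells the 7 pluripotency genes had levels from 54.52 to 1350. The sums there were 12.96 for primitive endoderm and 153.3 for fibroblast genes. Here the fibroblast sum was led by Col1a1, at 85.93, and no gene of that list was at 0; the part of these markers in the PRC2deg levels of the members was not tested. The 2 lines were normalised separately, so levels are ranked within a line only.

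In untreated PRC1deg cells, Tfap2c, which encodes an AP-2 factor of trophoblast and germ cells, was the most abundant member in the authors' deposited table, with a mean of 61.4 normalised reads per kilobase and 554.8 reads. This level was above that of 76.9% of all symbols. Tfap2a, the AP-2 paralogue known for neural crest and skin, followed at 4.45 (82.5 reads), and Gata2, a GATA factor also needed in blood stem cells, at 1.99 (16.7 reads) in the authors' deposited table. Gata3, a trophectoderm and T-cell GATA factor, stood at 1.24 (26.6 reads) and the basic helix-loop-helix gene Hand1 at 0.964 (3.31 reads) in the authors' deposited table. Elf5, an Ets factor of trophoblast stem cells and mammary gland, had 0.187 (7.29 reads). The caudal homeobox gene Cdx2 was listed at 0. Apart from Tfap2c, each member thus lay below the median level of 12.3 over all 19397 symbols. Without values per library it cannot be said which neighbours in this order differ.

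In untreated PRC2deg cells the order was partly another. Tfap2c was again the highest, at 57.6 normalised reads per kilobase in the authors' deposited table, and Elf5 the lowest, at 0.0391. Cdx2 came second, at 10.2 and 64.97 reads, close to the median of 10.7 over all symbols of that line. Gata2 (5.02), Gata3 (4.05), Hand1 (3.76) and Tfap2a (2.47) lay between in the authors' deposited table. Of the 1436 entries listed at 0 in PRC1deg, 13 entries of 10 symbols had 10 or more reads in PRC2deg. By PRC2deg reads Cdx2 was number 2 of these 13, after the cardiac actin gene Actc1 with 73.8 reads. The lines differ in genotype, kit and read length, and what sets the Cdx2 levels apart was not tested.

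**Figure D1:**
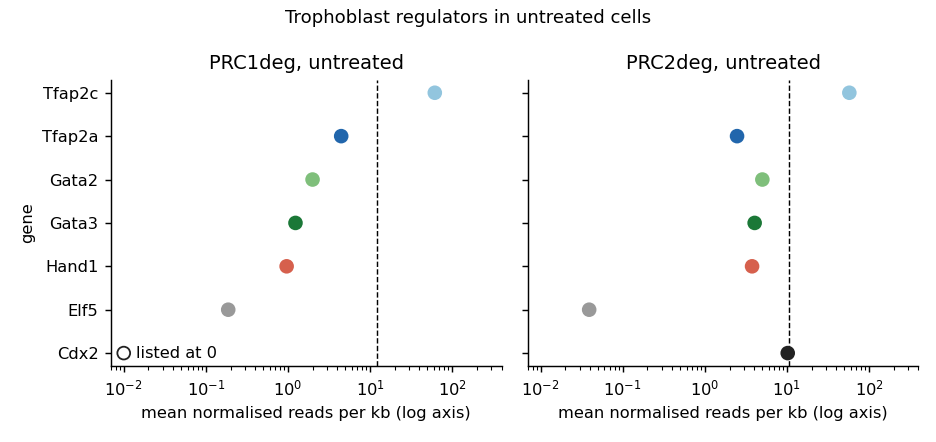
Mean level of each analysed trophoblast regulator in untreated cells, in normalised reads per kilobase on a log axis, for the PRC1deg (left) and PRC2deg (right) line; each point is the authors' mean, the open point is a gene listed at 0, and dashed lines are the medians of all symbols, 12.3 and 10.7. Tfap2c is highest in both panels, and Cdx2 is listed at 0 in PRC1deg and stands second in PRC2deg.

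The first comparison asked what happened within 2 h of auxin. Cdx2, Gata3, Gata2 and Tfap2a were called higher, 4 of 7 members, and 0 were lower. Over all entries tested, 5.55% were called higher and 0.255% lower. The median log2 fold change of the 7 members was 1.73, against 0.11 for all entries. Hand1, Tfap2c and Elf5 were not called at this time.

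Of the early trophectoderm regulators, Cdx2 had the highest log2 fold change of all 19957 entries at 2 h, 8.75 in the authors' deposited table (adjusted p = 2.02e-09 by DESeq2). Because its untreated level was listed at 0, this fitted value depends on the authors' model and gives no fold and no lower bound. What the value shows is reads after auxin in a gene listed without any before. Cdx2 was not alone in this: of 760 entries listed at 0 before auxin that had a fold change, the number higher was 15 at 2 h and 23 at 8 h. Over all entries tested, 5.55% and 25.7% were higher at these times. Some entries listed at 0 had no adjusted p and could not be called, so these counts are not shares of entries tested. For later times the authors' deposited table gave Cdx2 9.36 (4 h), 9.87 (8 h), again the highest of all entries, and 8.91 (24 h). Cdx2 was called higher at each time, with adjusted p of 3.11e-11, 2.27e-12 and 4.89e-10 at 4, 8 and 24 h.

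Gata3 had a log2 fold change of 2.86 at 2 h, a fold of 7.24, in the authors' deposited table (adjusted p = 6.9e-13 by DESeq2). The authors' deposited table then gave Gata3 3.47 at 4 h, a fold of 11.1, with 3.25 and 2.76 at 8 and 24 h. Most of its change was therefore present at 2 h, and the value was highest at 4 h. Its adjusted p lay between 1.16e-19 at 4 h and 1.87e-12 at 24 h.

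The giant cell regulators Gata2 and Hand1 had their highest values at 8 or 24 h. In the authors' deposited table Gata2 stood at 1.73 at 2 h (fold 3.32, adjusted p = 2.1e-05 by DESeq2), 2.85 at 4 h, 3.20 at 8 h (fold 9.20) and 2.67 at 24 h, called higher each time. The Gata2 value minus the Gata3 value was -1.13 at 2 h and -0.05 at 8 h on the log2 scale. Hand1 had 0.53 at 2 h in the authors' deposited table, which was not called (adjusted p = 0.275 by DESeq2). The authors' deposited table then gave Hand1 2.23, 2.99 and 3.12 at 4, 8 and 24 h, folds of 4.71, 7.93 and 8.68, each called higher (adjusted p = 0.000667, 3.07e-06 and 1.76e-06). Hand1 was the only called member whose highest value came at 24 h. With 3.31 untreated reads, its fold changes rest on few reads, and the absence of a call at 2 h does not show that it was unchanged.

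The AP-2 genes differed in starting level and in what was called. Tfap2a had log2 fold changes of 2.14, 2.83, 2.28 and 2.17 at 2, 4, 8 and 24 h in the authors' deposited table, folds of 4.40, 7.13, 4.85 and 4.51, and was called higher at each time (adjusted p from 3.59e-18 to 3.06e-10 by DESeq2). Its second transcript entry, with 80.9 untreated reads against 82.5, gave 2.07, 2.79, 2.18 and 2.11 in the authors' deposited table; the entries overlap and are not separate evidence. Tfap2c had 0.51, 0.56, 0.38 and 0.40 in the authors' deposited table, without a call at any time (adjusted p = 0.196, 0.0954, 0.192 and 0.271). Over all entries with at least 50 untreated reads the median was 0.15, 0.40, 0.50 and 0.24 at these times. Relative to that median Tfap2c stood at 0.35, 0.16, -0.12 and 0.16, so its direction at 8 h depends on the scaling. At 2 h, 91.7% of all entries had a lower value than Tfap2c, and at 8 h 42.8%.

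Elf5, known in mouse as a gatekeeper of the trophoblast lineage, was the only member with no value above 0. In the authors' deposited table its log2 fold changes were -0.04, -0.67, -0.54 and -0.03 at 2, 4, 8 and 24 h, with no call (adjusted p from 0.124 to 0.925 by DESeq2). At 4 h only 0.241% of all entries had a lower value. Its other transcript entry, with the same 7.29 untreated reads, gave values from -0.61 to -0.03 in the authors' deposited table. At this depth a change of Elf5 could not be told from none.

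**Figure D2:**
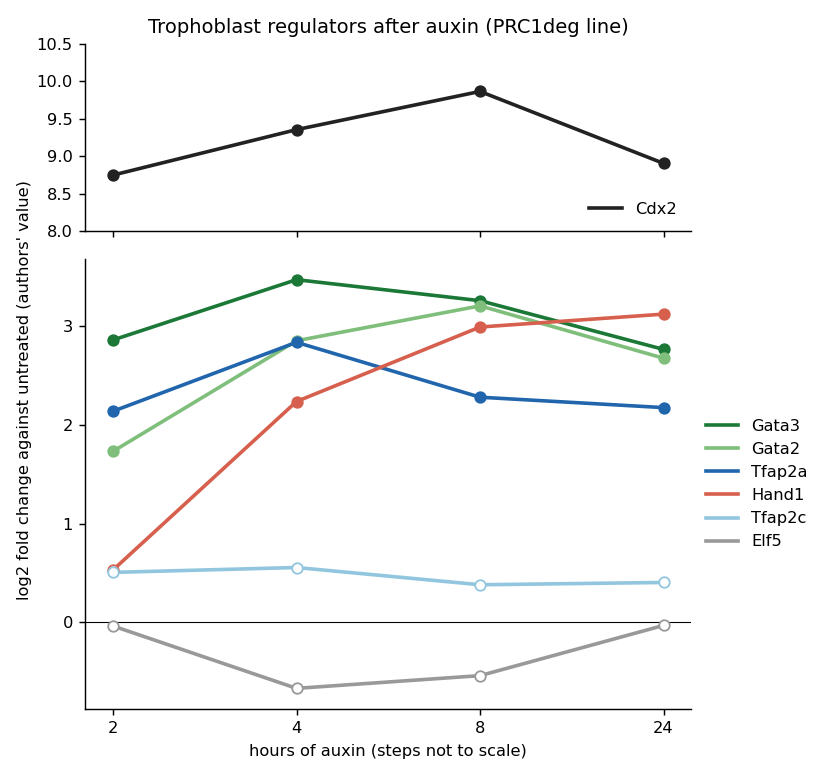
Log2 fold change of each analysed trophoblast regulator against untreated PRC1deg cells (y axis, the authors' value) by hours of auxin (x axis, steps not to scale), with Cdx2 in its own panel on another scale; filled points were called (adjusted p under 0.05 and fold over 1.5) and open points were not. Gata3, Gata2 and Tfap2a are filled at every time, Hand1 from 4 h on, Tfap2c and Elf5 at none; Cdx2 was listed at 0 before auxin, so its values give no fold.

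Later, at 4, 8 and 24 h, the members called higher were Cdx2, Gata2, Gata3, Tfap2a and Hand1, 5 of 7 each time, with 0 lower. Over all entries 16.1%, 25.7% and 11.5% were higher and 0.13%, 0.0869% and 0.612% lower at these times. With fold changes centred on the median of entries with 50 or more reads, still 5 of 7 members were higher at each of these times, while the share over all entries was 9.81%, 10.7% and 9.67%, in the same order. The members' median log2 fold change was 2.83, 2.99 and 2.67, beside medians of all entries of 0.32, 0.44 and 0.19. From 4 to 8 h the difference in log2 fold change was -0.21 for Gata3, -0.56 for Tfap2a, 0.35 for Gata2 and 0.75 for Hand1. From 8 to 24 h Cdx2, Gata2, Gata3 and Tfap2a had lower values and Hand1 one higher by 0.13. With centring, Tfap2a instead stood at 1.78 at 8 h and 1.93 at 24 h, so its direction depends on the scaling. Centred values of Gata2 (2.71 and 2.43) and Gata3 (2.76 and 2.52) were still lower at 24 h, as was that of Cdx2. The 4 comparisons share the untreated libraries, and differences between times were not tested. In the label descriptions the 24 h libraries carry sample numbers that repeat some of those of the 0 to 8 h libraries; whether they were prepared or run apart is not said, and any such effect cannot be told apart from time.

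**Figure D3:**
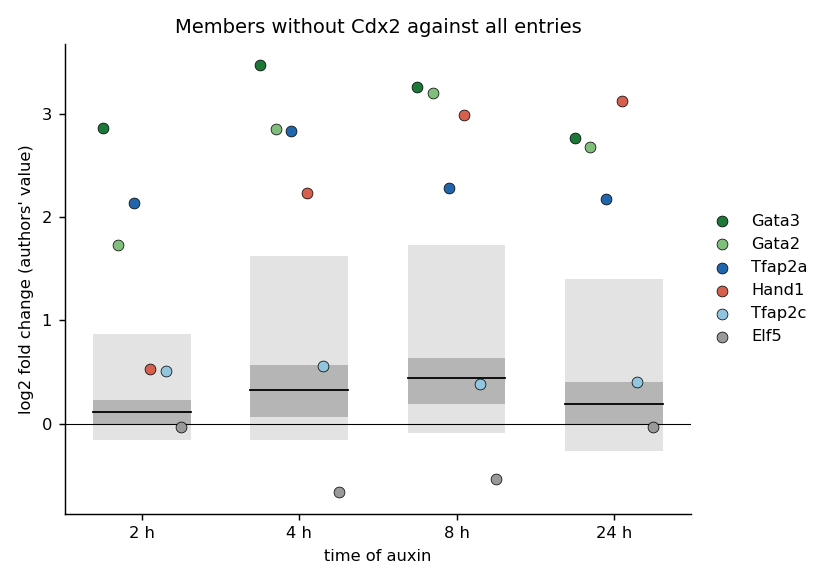
Log2 fold change (y axis, the authors' value) of 6 trophoblast regulators (coloured points; Cdx2, between 8.75 and 9.87, is off this scale) at each time of auxin, over the distribution of all 19957 entries: light bars span the 5th to the 95th percentile, dark bars the quartiles, and black lines are the medians. Gata3, Gata2 and Tfap2a lie above the light bars at all times and Hand1 from 4 h on, and Elf5 lies below them at 4 and 8 h.

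After 2 h of dTAG-13 in the PRC2deg line, none of the 7 members was called in the authors' deposited table, with 0 higher and 0 lower. The background was 0.0% of 19506 entries in either direction, so this count says nothing particular to the members. Their log2 fold changes ran from -5.775e-06 for Tfap2c to 3.307e-06 for Tfap2a in the authors' deposited table. Every fold change of that table lay within 0.000985 of 0 and its lowest adjusted p was 0.999956. Sizes shrunken to this degree cannot be set beside those under auxin, and the difference between the lines was not tested. The auxin values may be shrunken as well. For 4093 entries with under 10 untreated reads, their quartiles at 2 h were -0.00862 and 0.0525. Folds given here are these fitted values taken off the log2 scale.

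The paralogues of the members were looked at family by family. Of 17 relatives, the number higher was 4, 7, 11 and 8 at 2, 4, 8 and 24 h, and the number lower 0, 0, 0 and 1, and with centring 4, 6, 10 and 8 were higher. Over all entries tested the share higher was 5.55%, 16.1%, 25.7% and 11.5%, and with centring 5.46%, 9.81%, 10.7% and 9.67%. The list's median log2 fold change was 0.38, 0.90, 1.25 and 1.00, beside 0.11, 0.32, 0.44 and 0.19 for all entries. In the GATA family, Gata6, a primitive endoderm regulator, was called at each time, with 2.03, 2.93, 3.41 and 4.16 in the authors' deposited table, so that it passed Gata3 in value at 8 h. Gata4, which acts in endoderm and heart, had 0.82, 1.38, 1.57 and 1.45 and was also called at each time, and Gata5 was called at 8 h alone, at 1.49, in the authors' deposited table. Gata1, the erythroid member, had values from -0.11 to 0.03 in the authors' deposited table, with no call.

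Among AP-2 genes, Tfap2e was higher at each time, with 1.02, 1.75, 2.17 and 1.58 in the authors' deposited table. Tfap2d was called at 4 and 8 h (2.25 and 2.39) and Tfap2b at 8 and 24 h (1.62 and 2.67) in the authors' deposited table, from 2.59 and 1.88 untreated reads. Of the 5 AP-2 genes, Tfap2c had the most untreated reads and was the one called at no time.

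Of the caudal genes, Cdx1 was called at 8 and 24 h, at 1.21 and 1.52 in the authors' deposited table. Cdx4 was called at 8 h alone, at 1.25 in the authors' deposited table, from 5.65 untreated reads. Hand2, the heart and limb relative of Hand1, was listed at 0 before auxin and called at each time, with fitted values of 6.15, 7.44, 8.38 and 7.12 that likewise give no fold. Among the Ets relatives of Elf5, Elf4 was higher from 4 h on (1.34, 1.62 and 1.29), Elf2 at 4 and 8 h (0.94 and 0.97, neither with centring) and Elf3 at 24 h (1.00) in the authors' deposited table. Ehf, an epithelial Ets gene with 28.4 untreated reads, was lower at 24 h, at -1.66 in the authors' deposited table (adjusted p = 0.00883 by DESeq2). Elf1 was not called. Krt7 and Krt19, keratins of simple epithelium, had values from -0.30 to 0.68 in the authors' deposited table, with no call.

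**Figure D4:**
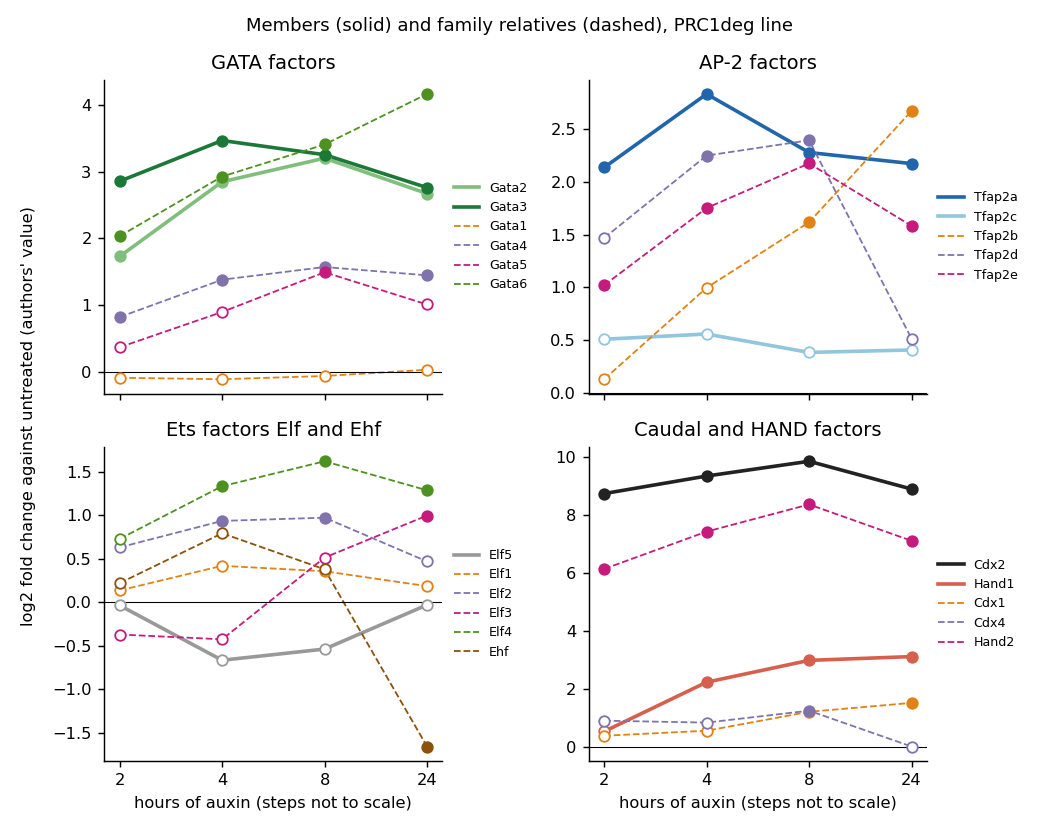
Log2 fold change against untreated PRC1deg cells (y axis, the authors' value, another scale in each panel) by hours of auxin (x axis, steps not to scale) for members (solid lines) and their relatives (dashed lines) in 4 panels; filled points were called and open points were not. Gata6 is highest at 24 h, where it stands at 4.16, while the called points of Gata2, Gata3 and Gata4 are highest at 4 or 8 h; Cdx2 and Hand2 were listed at 0 before auxin.

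Of 17 other trophoblast stem cell and trophectoderm genes, the number higher was 4, 8, 8 and 6 at 2, 4, 8 and 24 h, with 0 lower throughout. That is 23.5%, 47.1%, 47.1% and 35.3% of the list, against 5.55%, 16.1%, 25.7% and 11.5% of all entries. With centring 4, 7, 6 and 6 were higher, against 5.46%, 9.81%, 10.7% and 9.67% of all entries. The list's medians of 0.30, 0.48, 0.58 and 0.18 stand beside 0.11, 0.32, 0.44 and 0.19 for all entries. Eomes, a T-box factor needed for trophoblast stem cells, had 2.06, 3.09, 3.01 and 2.73 in the authors' deposited table. Sox21 (1.95, 2.94, 2.10 and 1.40), Msx2 (0.95, 1.32, 1.21 and 1.10) and Fgfr2 (1.04, 1.10, 1.37 and 1.82) were also higher at each time in the authors' deposited table. FGFR2 is the receptor through which FGF4 sustains trophoblast stem cells. The placental homeobox genes Dlx3 (1.52, 2.15 and 1.87) and Esx1 (1.10, 1.56 and 1.42) were called from 4 h on in the authors' deposited table. Hopx was called at 4 and 8 h (1.02 and 1.01) in the authors' deposited table. Bmp4 was called at 4 h alone (0.62) and P-cadherin gene Cdh3 at 8 h alone (0.76) in the authors' deposited table. The calls of Bmp4 and Cdh3 and the 8 h call of Hopx were lost with centring.

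Other genes of this list were not called at any time. Esrrb, a nuclear receptor of both stem cell types with 20660 untreated reads, had values from 0.07 to 0.31, and Klf5, a regulator of both trophectoderm and inner cell mass, from -0.30 to 0.16, in the authors' deposited table. The rest without a call were Tead4, Ets2, Id2, Arid3a, Lgals3 and Plet1.

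Genes of differentiated trophoblast and placenta included a few that rose. Of 11 analysed, 9 were tested at 2 h and 8 at each later time. The number higher was 2, 4, 4 and 3 over the 4 times, with 0 lower. These are 22.2%, 50.0%, 50.0% and 37.5% of those tested, against 5.55%, 16.1%, 25.7% and 11.5% of all entries. With centring the counts were 2, 2, 3 and 3, against 5.46%, 9.81%, 10.7% and 9.67% of all entries. The medians of the 11 analysed genes were 0.008, 0.20, 0.43 and 0.64, beside 0.11, 0.32, 0.44 and 0.19 for all entries. Up to 8 h the list's median was thus not above that of all entries. Flt1, a VEGF receptor of endothelium and spongiotrophoblast, had 1.73, 2.69, 3.21 and 2.43 in the authors' deposited table. The transcriptional cofactor gene Cited1 had 1.38, 1.91, 3.07 and 3.52 in the authors' deposited table. With 9.42 untreated reads, the values of Cited1 rest on few reads. Ascl2, a spongiotrophoblast regulator, was called from 4 h on (0.94, 1.99 and 1.34) in the authors' deposited table. The imprinted gene Peg10 was called at 4 and 8 h (0.77 and 0.76) in the authors' deposited table. The calls of Peg10 and the 4 h call of Ascl2 were lost with centring. Gcm1 and Syna of the syncytiotrophoblast, Plac1 and Phlda2 were not called. Prl3b1, a placental lactogen gene, and Ctsq were listed at 0 before auxin and had fold changes within 0.03 of 0.

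Few of the upstream inputs were called. Of 14 Hippo and Notch genes, which relay cell position to Cdx2 and Gata3 in the embryo, the number higher was 1, 1, 4 and 1 at 2, 4, 8 and 24 h, with 0 lower, and 1 each time with centring. The list's 7.14%, 7.14%, 28.6% and 7.14% lay near or below the 5.55%, 16.1%, 25.7% and 11.5% of all entries. The centred share over all entries was 5.46%, 9.81%, 10.7% and 9.67%. Lats2, a Hippo kinase, was called up to 8 h, with 1.45, 1.10, 1.17 and 0.67 over the 4 times in the authors' deposited table. Amot, which binds YAP, was called at 8 and 24 h (0.84 and 1.23) in the authors' deposited table. Tead2 (0.69) and Tead3 (0.87) were called at 8 h alone in the authors' deposited table. Centring removed the 8 h calls of Amot, Tead2 and Tead3. Yap1, Wwtr1, Tead1, Tead4, Rbpj and Notch1 were not called.

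Krt7 and Krt19 were counted again among 11 simple epithelium genes. Of these 11, 1, 1, 3 and 3 were higher at 2, 4, 8 and 24 h, with 0 lower. With centring the number higher was 1, 1, 2 and 3, against 5.46%, 9.81%, 10.7% and 9.67% of all entries. The list's shares of 9.09%, 9.09%, 27.3% and 27.3% lay near or below the 5.55%, 16.1% and 25.7% of all entries up to 8 h, and above the 11.5% at 24 h, so the genes named next are given as values only. Ocln, a tight junction gene, was called each time and had 0.90, 1.5, 1.62 and 1.21, and the desmosome gene Dsp had 1.20 and Cldn7 0.74 at 8 h in the authors' deposited table. Dsp and Cldn7 were called again at 24 h, at 1.10 and 1.28 in the authors' deposited table. Centring removed the 8 h call of Cldn7. Cdh1, Epcam, Tjp1 and Itga6 were not called.

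Markers of another lineage moved with the members. Of 6 primitive endoderm markers, Gata4 and Gata6 among them, 4, 6, 6 and 5 were higher at 2, 4, 8 and 24 h. Centring left 4, 5, 5 and 5. The share higher of all entries tested was 5.55%, 16.1%, 25.7% and 11.5%, and 5.46%, 9.81%, 10.7% and 9.67% with centring. The medians of these markers were 1.17, 2.26, 2.07 and 1.76, beside 0.11, 0.32, 0.44 and 0.19 for all entries. Of 7 pluripotency markers 0 were called at any time, with medians of 0.15, 0.29, 0.17 and 0.16. Of 6 fibroblast markers, 3 or 4 were tested, and Col1a2 was called at 8 and 24 h, at 1.01 and 1.09 in the authors' deposited table, of which the call at 8 h was lost with centring. The part of these markers in the members' changes was not tested.

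**Figure D5:**
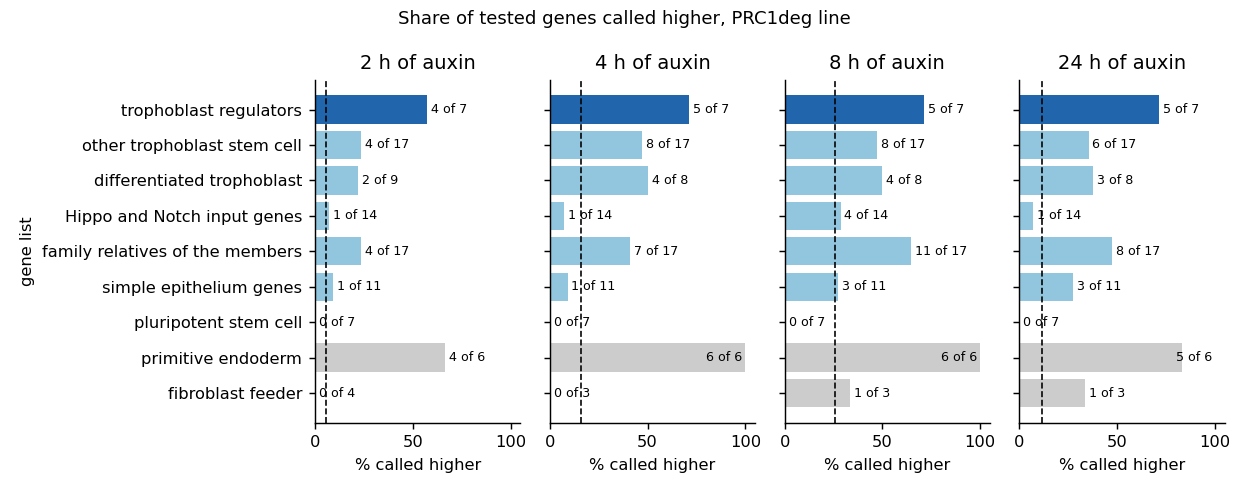
Share of tested genes called higher (x axis, percent) in each gene list (y axis) at 2, 4, 8 and 24 h of auxin; numbers beside the bars count the genes called of those tested, and dashed lines mark the share over all entries, 5.55%, 16.1%, 25.7% and 11.5%. Trophoblast regulators (dark blue) reach 4 or 5 of 7, marker lists are grey, and no pluripotency gene is called.

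For each called member, the genes with the most similar course were sought among 15860 entries with 10 or more untreated reads, by Euclidean distance over the 4 log2 fold changes. Nearest to Gata3 were Klhl14, at a distance of 0.157, and the kidney regulator Wt1, at 0.283. Nearest to Gata2 were Tmem56 (distance 0.0892) and the Ets factor Fli1 (distance 0.22). Tfap2a had the ephrin receptor gene Epha7 (distance 0.196) and the prostaglandin receptor gene Ptger3 (distance 0.263) beside it. For Hand1, Slc7a10 lay at a distance of 0.611 and the imprinted gene Dlk1 at 0.641. For Cdx2 the nearest in this search, Ebf3 and Nr2f2, were at distances of 8.30 and 8.43. Cdx2 and Hand1 themselves have fewer than 10 untreated reads, so entries as sparse as they are were not searched, and their larger distances say nothing particular to them.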

How the data were processed

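Nuclear RNA of 21 libraries was measured by the authors, and 5 tables of comparisons were used. Per the submitters' processing notes, Bowtie2, STAR, SAMtools, bedtools and DESeq2 with builds mm10 and dm6 were named, with no version in the sources used here. Strand-keeping libraries of rRNA-depleted RNA were read as pairs of 80 bp (PRC1deg) or 40 bp (PRC2deg), per the labels' protocols. The log2 fold changes and the adjusted p-value columns were deposited by the authors, per the file headers, without standard errors, and for most of the 4093 entries with under 10 untreated reads they are small, with quartiles of -0.00862 and 0.0525 at 2 h, though not for all. The column headed as mean RPKM is read here as a signal that the authors deposited in normalised reads per kilobase, since value times length sums to 30450536 over the PRC1deg entries, more than a per-million unit allows. The depth of single libraries is unknown. Per symbol the entry with the most untreated reads was taken, the longer one on a tie. Members, lists and markers were chosen with earlier results of these data known. Named genes were the 7 analysed members, each list gene called at any auxin time and the 2 nearest entries of each called member; other list genes are named as not called. Lists are described by counts and medians with no test, since there is no value per library. Alternatives were other thresholds, minimum reads, centring and another entry per symbol. The calling step was tested on simulated data. Python 3.11.15, numpy 2.4.6, pandas 2.3.3 and matplotlib 3.10.9 were used. No mouse coordinates or sequences were used here.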

Additional observations from a re-analysis of the deposited data

How the results depend on the processing

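The counts of members called higher were 4 of 7 at 2 h and 5 of 7 at 4, 8 and 24 h, and stayed the same with an adjusted p under 0.01, a fold over 2, no fold threshold, centring, or the entry with the fewest reads. They fell with a minimum of untreated reads, by construction, since fewer members are left. With 10 or more reads, 4 members were left, of which 3 were higher at 2, 4, 8 and 24 h. The share over all entries with as many reads was 5.18%, 15.6%, 25.5% and 10.6%, in the same order. With 50 or more reads 2 were left, Tfap2a and Tfap2c, of which 1 was higher at each time. Of all entries with 50 or more reads, 4.16%, 14.8%, 25.6% and 9.08% were higher at 2, 4, 8 and 24 h. With centring, the value of Tfap2c at 8 h turned to -0.12. The count of 0 under dTAG-13 was 0 under every alternative, and the lowest adjusted p of 0.999956 gives DESeq2 no call at any threshold used; a count at an unadjusted p cannot be given, since the tables hold adjusted values only. The share of entries called higher moved by less than 1.5 times with 1 entry per symbol or with 50 or more reads. It moved by more at 4 and 8 h, from 16.1% and 25.7% to 9.69% and 13.1% with an adjusted p under 0.01, 9.65% and 11.6% with a fold over 2, and 9.81% and 10.7% with centring. At 2 and 24 h it was 4.14% and 8.06% with an adjusted p under 0.01, and 4.39% and 8.19% with a fold over 2. Leaving out single replicates was not run, since the tables hold no value per library. No paired analysis was possible because the tables give comparisons of groups and no column carries a replicate number. Depth limits Hand1, Elf5 and Cdx2, with 3.31, 7.29 and 0 untreated reads.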
